A study of Mus musculus with 4 samples.

Results

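The mRNAs of 10 nuclear receptor genes that sense lipids or foreign compounds were followed in mouse liver: Ppara, Pparg, Ppard, Nr1h4, Nr1i2, Nr1i3, Rxra, Hnf4a, Nr5a2 and Esrra. They were picked by symbol, not by their values, from the 24346 gene symbols of the deposited tables. Each symbol was listed 1 time in every library, and all 10 had a mean of at least 1 FPKM (fragments counted per transcript length and per library size) over the 4 libraries. The receptor that differed most between libraries was Nr1i3, which encodes the constitutive androstane receptor (CAR), with a level in CD+7KC that was 3.77-fold that in WD+7KC. The other 9 receptors each stayed within a 1.79-fold range.

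The study asked what 7-ketocholesterol (7KC), an oxidised form of cholesterol found in processed food, does to the fatty liver of obese mice. Liver RNA came from male ob/ob mice, which lack leptin and become obese, and which were placed on the diets at 6 weeks of age for 4 weeks. CD was normal chow, WD was the western, high-fat diet, and CD+7KC and WD+7KC held 0.01% 7KC in addition. All of the diets, CD and WD included, contained 1% cholesterol, so no group was free of dietary cholesterol, and no group had leptin. Each group was 1 library, and the number of mice behind a library was not stated. The differences below therefore have no replicate check and carry no p-value, and the comparisons share libraries with each other.

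Nuclear receptors are transcription factors that a small, fat-soluble ligand can switch on or off. Most of those described here pair with the retinoid X receptor encoded by Rxra and bind DNA at repeats of a short half-site, AGGTCA, whereas Hnf4a protein pairs with itself and the products of Nr5a2 and Esrra can bind as single molecules. In the liver they couple the supply of fatty acids, bile acids and drugs to the enzymes that burn, store or clear them.

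The libraries held an estimated 9430000 to 12100000 fragments. This was recovered from the spacing of low FPKM values, and 69.9% to 70.9% of these low values lay within 0.1 of a whole read. The sum of all FPKM was 602059 in WD+7KC and 696062 to 715605 in the other libraries, so rescaling every library to the same sum moved the median gene averaging at least 1 FPKM from -0.03 to 0.18 on the log2 scale in WD+7KC compared to WD. Values on both scalings are given for many of the results whose direction turns with the choice. A value given on the deposited scale alone does not mean that its direction held. Hepatocyte markers were abundant, with Alb at 30014 FPKM in WD+7KC and 35981 FPKM in WD. The summed FPKM of 6 hepatocyte markers was 51197 on CD, 43435 on CD+7KC, 53138 on WD and 41965 on WD+7KC. The summed FPKM of 8 macrophage markers was 86.2, 165, 175 and 362 in the same order, and that of 6 endothelial markers was 30.2, 33.9, 22.5 and 62.8. In whole liver, fewer cells of a type and less RNA per cell cannot be told apart, and the part of these shifts in the receptor values was not tested.

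The stretches of DNA before the start sites are shown first, because AGGTCA is the letter string that these receptors read. RefSeq windows of 250 bases before to 50 after a start site (GRCm38.p6) were matched by symbol for all 10 genes, giving 15 windows. The half-site, searched as AGGTCA on both strands, was in 5 of the 15 windows, which belong to Nr1h4, Nr5a2, Pparg and Rxra, and in 16.3% of all 32851 windows. The matches of Pparg, Rxra and Nr1h4 lie before a RefSeq start but within the GENCODE span of the gene itself. That of Nr5a2 lies outside the span. The 6 matches follow with 10 bases on each side, 5′ to 3′ on the strand of the gene, the half-site in capitals (AGGTCA, or TGACCT where it lies on the opposite strand).
Nr5a2 chr1:136960497-136960522 (-), 64 bases before a start: ggtttacagcAGGTCAtacatgctgg
Rxra chr2:27709234-27709259 (+), 48 bases before a start: gtggcaggaaAGGTCAgtcactctct
Rxra chr2:27709195-27709220 (+), 87 bases before a start: gaaatgggtgTGACCTgagtaatggt
Pparg chr6:115361106-115361131 (+), 28 bases before a start: ccgccgcctcAGGTCAgagtcgcccc
Pparg chr6:115362330-115362355 (+), 9 bases before a start: ggacgcgaggAGGTCAagaaggggcc
Nr1h4 chr10:89506857-89506882 (-), 214 bases before a start: gtgtggcattTGACCTccagccagtc

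Pairs of half-sites were searched on both strands, allowing AGGTCA, the variant AGTTCA, the variant GGGTCA or the variant GGTTCA in either place. None of the 15 windows held a direct repeat with 1 to 5 bases between the half-sites, an inverted repeat with 1 base or an everted repeat with 6 bases. Over all windows the most frequent of these arrangements, the direct repeat with 2 bases, was in 0.268%, and the extended half-site of single receptors, TCA joined to AGGTCA, was in 0.423% of windows and in none of the 15, so that an absence from 15 windows says only that these letters are not there. The bases before Nr1i3 and Ppard are printed because these genes had opposite differences with 7KC on the 2 diets under every scaling used. Nr1i2, Rxra and Nr5a2 had opposite differences as deposited but not under every scaling. For Ppard the counting interval of the change on CD held 0. Neither window held AGGTCA, so nothing is in capitals. The Nr1i3 stretch is the 250 bases up to its start, and the Ppard stretch the 196 bases up to the GENCODE gene start.
Nr1i3 chr1:171213720-171213969 (+): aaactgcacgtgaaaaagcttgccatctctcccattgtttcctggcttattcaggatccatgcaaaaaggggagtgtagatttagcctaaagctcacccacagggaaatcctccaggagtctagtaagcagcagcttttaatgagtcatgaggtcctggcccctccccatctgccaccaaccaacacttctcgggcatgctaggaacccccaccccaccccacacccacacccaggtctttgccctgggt
Ppard chr17:28232504-28232699 (+): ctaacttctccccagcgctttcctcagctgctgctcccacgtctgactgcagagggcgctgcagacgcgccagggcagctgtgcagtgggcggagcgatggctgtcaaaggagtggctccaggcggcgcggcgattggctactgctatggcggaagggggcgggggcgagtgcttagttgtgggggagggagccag

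The order of the mean levels ran from Hnf4a through Rxra, Nr1h4, Ppara, Nr1i3, Nr1i2, Pparg, Esrra and Nr5a2 to Ppard, from 106 FPKM down to 1.98 FPKM. Between neighbours in the order within a library, exact 95% counting intervals overlapped for Rxra and Nr1h4 in CD, for Rxra and Nr1i3 and for Nr1h4 and Ppara in CD+7KC, and for Nr1i3 and Pparg and for Pparg and Esrra in WD+7KC. They overlapped for no neighbours in WD. These intervals cover the counting of reads within a library only, not the variation between mice. They use the shortest RefSeq mRNA of genes with several. The order of genes also depends on the transcript length behind each FPKM, which the intervals do not cover. Nr1i3 was the receptor whose place changed most, at rank 5 in CD, rank 3 in CD+7KC and rank 6 in WD and in WD+7KC.

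**Figure D1:**
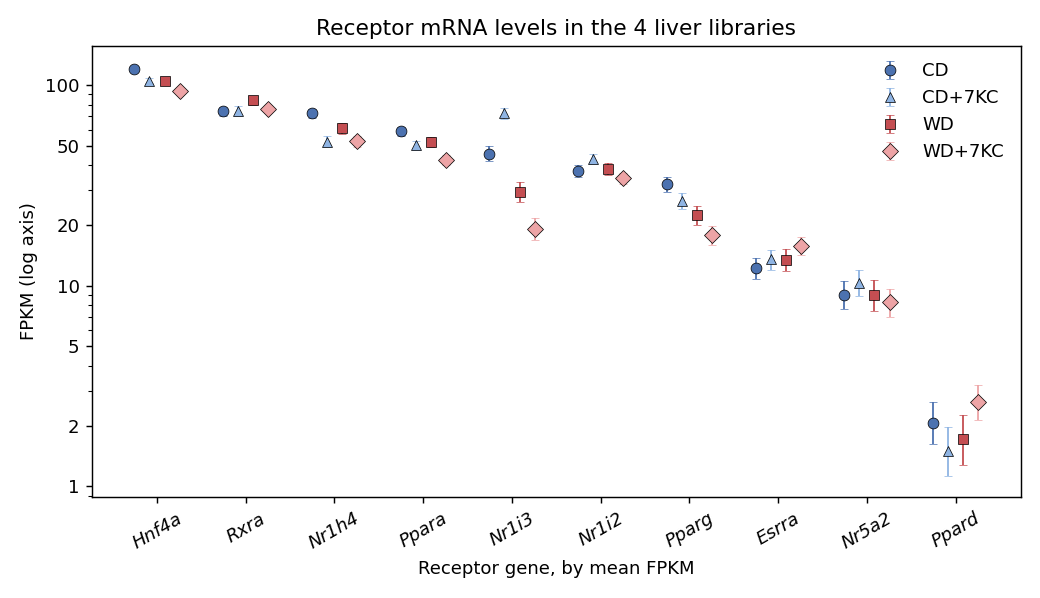
FPKM of the 10 receptor mRNAs on a log axis, with 1 point per library (CD, CD+7KC, WD, WD+7KC) and exact 95% counting intervals as bars. Nr1i3 spread from 19.2 to 72.5 FPKM, while Rxra stayed between 74.2 and 84.1 FPKM.

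Among 49 nuclear receptor genes, 34 had a mean of at least 1 FPKM and 7 were listed at 0 in all 4 libraries. The 10 receptors held 62.1% of the summed receptor FPKM on CD, 60.1% on CD+7KC, 60.0% on WD and 57.4% on WD+7KC. Their sum was 465 FPKM on CD, 450 on CD+7KC, 417 on WD and 363 on WD+7KC. Hnf4a, Rxra and Nr1h4 took the first 3 places among the 49 and Ppard took place 29. The most abundant receptor outside the 10 was Nr1h3, the liver X receptor alpha for oxysterols, at 48.4 FPKM on CD, 54.7 on CD+7KC, 58.0 on WD and 55.9 on WD+7KC, followed by Nr2f6, Nr1d1, Nr1d2 and Nr0b2 with means of 22.1 to 41.7 FPKM.

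**Figure D2:**
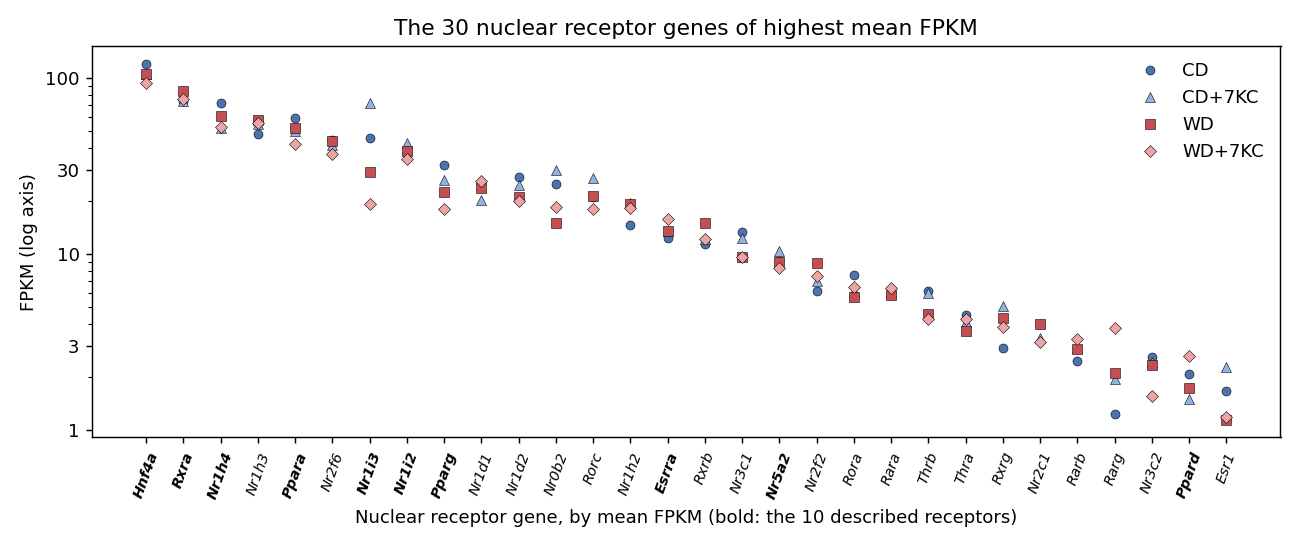
FPKM on a log axis of the 30 nuclear receptor genes of highest mean FPKM, ordered by mean, with 1 point per library and the 10 described receptors in bold. The 4 points of Nr1i3 are the most spread among the 9 genes of highest mean.

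For addition of 7KC to WD, no receptor passed a log2 change of 1 in either direction, a threshold that 9.0% of the genes above 0 FPKM passed. At a 1.5-fold difference, 2 of the 10 passed, against 10.5% of genes averaging at least 1 FPKM. Ppard was the 1 that was higher (7.50% of genes were higher by this much) and Nr1i3 the 1 that was lower (3.04% of genes), a difference that did not pass with equal sums (-0.39). In WD+7KC 2 receptors were higher and 8 lower as deposited, a split that became 6 and 4 with equal sums. The median log2 change of the receptors was -0.16, or 0.05 after rescaling, against -0.03 and 0.18 for all genes averaging at least 1 FPKM. Hnf4a, Rxra, Nr1i2 and Nr5a2 thus had a direction that depended on the scaling.

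For addition of 7KC to CD, the threshold of 1 was passed by none of the receptors and by 6.75% of genes. Nr1i3 alone passed 1.5-fold, which 7.44% of genes did, and it was higher, as were 4.4% of genes by this much, while 3.05% of genes and no receptor were lower. The receptors split into 5 higher and 5 lower on both scalings, with a median of -0.10 as deposited and -0.06 with equal sums, against medians of -0.005 and 0.03 for all genes.

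In WD compared to CD, again no receptor and 9.69% of genes passed a log2 change of 1. Nr1i3 was the 1 receptor past 1.5-fold, a difference seen in 15.5% of genes, and it was lower, as were 6.94% of genes, while 8.59% of genes and no receptor were higher by this much. The receptors split into 3 higher and 7 lower as deposited and 4 and 6 with equal sums, and their median was -0.19 and -0.15.

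In WD+7KC compared to CD+7KC, Nr1i3 was the 1 receptor of 10 past a log2 change of 1, against 12.6% of genes. Past 1.5-fold, Ppard was higher and Nr1i3 lower, 2 of 10 where 20.1% of genes passed, 11.8% of them higher and 8.33% lower. The receptors split into 4 higher and 6 lower as deposited and 5 and 5 with equal sums, with medians of -0.21 and -0.0002 against -0.02 and 0.18 for all genes. With 10 receptors, 1 or 2 past a threshold cannot be told from the share of all genes, and these counts are not read as a result about the receptors.

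**Figure D3:**
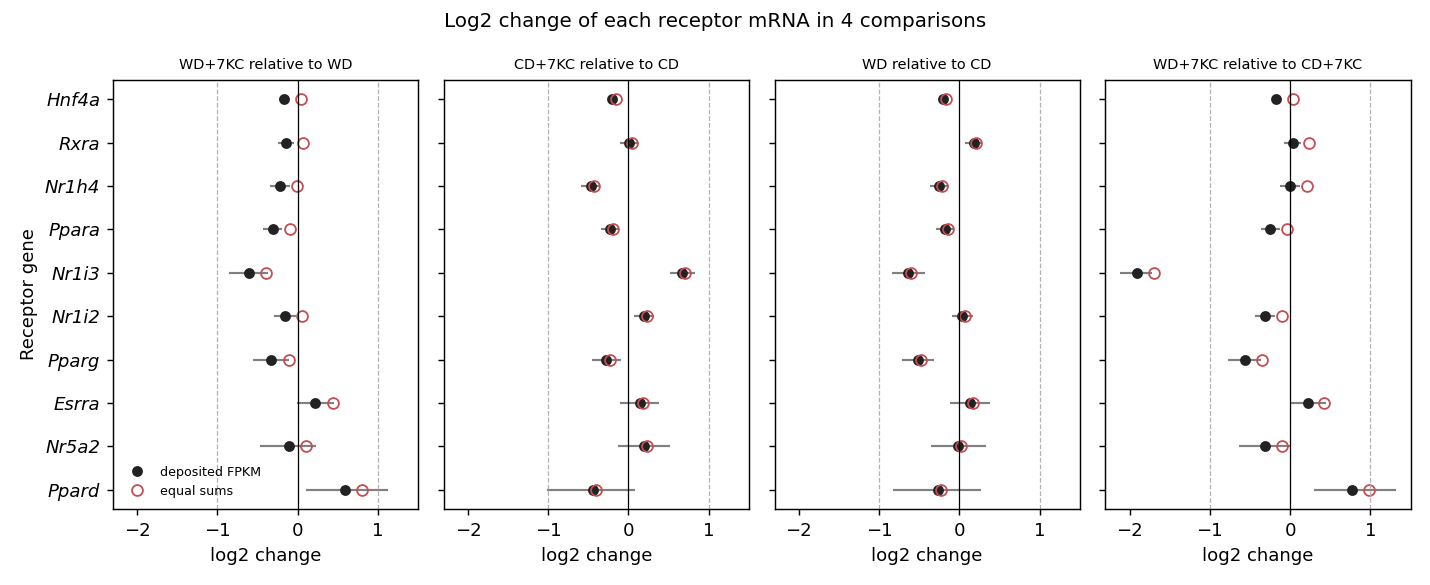
Log2 change of (FPKM + 0.1) of each receptor mRNA in the 4 comparisons; black points are deposited FPKM with exact 95% counting intervals as lines, and open red points are values after rescaling every library to the same sum. Dashed lines mark log2 changes of -1 and 1, and Nr1i3 in WD+7KC relative to CD+7KC, at -1.91, is the point past them.

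Nr1i3 (ENSMUSG00000005677, chr1:171213970-171220701, + strand, GRCm38) encodes CAR, a sensor of drugs and other foreign compounds that switches on detoxifying enzymes. Its level was 45.6 FPKM on CD, 72.5 on CD+7KC, 29.4 on WD and 19.2 on WD+7KC, resting on at least 257 estimated reads in each library. The mRNA was thus higher with 7KC on CD and lower with 7KC on WD. On CD, 7KC went with a log2 change of 0.67 (95% counting interval 0.51 to 0.83), and on WD with one of -0.61 (-0.86 to -0.37). Rescaled to equal sums these were 0.71 and -0.39, so the opposite directions held on both. Of 10650 genes, 0.742% passed 1.5-fold in opposite directions under the 2 diets, and Nr1i3 was the 1 receptor of 10 to do so as deposited, but it fell short of 1.5-fold on WD with equal sums. WD was lower than CD by a log2 change of -0.63 (-0.84 to -0.43), and the diets with 7KC differed by -1.91 (-2.12 to -1.72).

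The Nr1i3 gene lies tail to tail over Tomm40l, a gene on the opposite strand, which covers 936 of the 1414 bases (66.2%) of its RefSeq mRNA exons. The libraries were stranded, but whether the counting used the strand was not stated, and without it reads of the 2 genes cannot be told apart over those bases. Tomm40l was listed at 25.2 FPKM on CD, 35.9 on CD+7KC, 16.4 on WD and 13.5 on WD+7KC, the same order of libraries as for Nr1i3. Its log2 changes were 0.51 for 7KC on CD, -0.28 for 7KC on WD and -1.41 for the diets with 7KC. The part of Tomm40l reads in the Nr1i3 value was not tested.

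The 3 genes with the closest profile to Nr1i3 over the 4 libraries, by distance between centred log2 values, were Cyp3a59 (0.09), Hao2 (0.15) and Cyp26a1 (0.21), which encode a cytochrome P450 of the drug-metabolising family 3, a peroxisomal hydroxyacid oxidase and a retinoic acid hydroxylase. Cyp3a59 was at 41.4 FPKM on CD, 66.0 on CD+7KC, 28.9 on WD and 17.9 on WD+7KC. Its sequence is close to that of other Cyp3a genes, so its reads may have been split among them. Within a distance of 0.3 lay 8 genes averaging at least 1 FPKM, over these 4 points. The values were not scaled by the range of a gene, so such counts cannot be compared between receptors of different range.

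A list of genes taken as CAR targets was read next. Of 9 listed targets, all measured at a mean of at least 1 FPKM, 5 were higher and 4 lower in CD+7KC compared to CD. All 5 were past 1.5-fold, against 4.40% of genes. The 4 that were lower were Cyp2c29, Por, Alas1 and Gadd45b. None of the 4 was lower by as much, and Alas1 came closest (-0.57). The median of the list was 0.63 and that of all genes -0.005. Cyp2b10, the classical CAR target among the cytochrome P450 genes, was at 32.7 FPKM on CD, 64.4 on CD+7KC, 11 on WD and 8.14 on WD+7KC. Its library order was that of Nr1i3, an order that the 4 lower targets did not have. Cyp2b13 was at 9.72, 38.8, 3.66 and 5.11 FPKM in the same order of libraries, Cyp2b9 at 97.4, 202, 116 and 100.4 FPKM, and Cyp2c37 at 35.3, 58.3, 12 and 6.59 FPKM. The Cyp2b and Cyp2c genes are near copies of each other, so their separate values are uncertain.

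With 7KC on WD, Cyp2c37 was lower by more than 1.5-fold (-0.85), the other 8 did not pass, and the median of the CAR targets was -0.31. With equal sums that median was -0.10, and Cyp2b13 passed as higher (0.68). In WD compared to CD, 1 was higher and 4 were lower past 1.5-fold, where 8.59% of genes were higher and 6.94% lower. Among the 4 was Cyp2c29, at 1308 FPKM on CD and 243 FPKM on WD. In WD+7KC compared to CD+7KC, 6 were lower and 1 was higher, against 8.33% and 11.8% of genes, and the median was -1.01. The 1 that was higher on WD in both of these was Alas1, the first enzyme of haem synthesis, at 165 FPKM on CD, 111 on CD+7KC, 322 on WD and 259 on WD+7KC. Alas1 was lowest in the library in which Nr1i3 was highest.

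Nr1i2 (ENSMUSG00000022809, chr16:38248323-38294824, - strand) encodes the pregnane X receptor (PXR), the other main sensor of foreign compounds. It was at 37.4 FPKM on CD, 42.9 on CD+7KC, 38.4 on WD and 34.5 on WD+7KC. These values were close together, with the highest 1.24-fold the lowest. The log2 change with 7KC was 0.20 (0.07 to 0.32) on CD and -0.16 (-0.29 to -0.02) on WD, the latter turning to 0.06 with equal sums.

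Of 11 PXR targets, 9 had a mean of at least 1 FPKM. None of the 9 passed 1.5-fold with 7KC on CD, where 7.44% of genes did. With 7KC on WD 3 were lower, namely Cyp3a11, Ces2a and Cyp3a25, or 2 of them with equal sums. There 3.04% of genes were lower by this much as deposited. Cyp3a11, a major drug-clearing P450 of mouse liver, was at 3735 FPKM on CD, 3491 on CD+7KC, 2724 on WD and 1214 on WD+7KC. Its log2 change with 7KC on WD was -1.17, while that of Nr1i2 mRNA was -0.16. Ces2a, a carboxylesterase, was at 180 FPKM on CD, 163 on CD+7KC, 62.9 on WD and 33.0 on WD+7KC. Slco1a4, a bile acid and organic anion importer, went the other way with diet, at 6.01, 4.75, 13 and 10.9 FPKM in the same order.

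**Figure D4:**
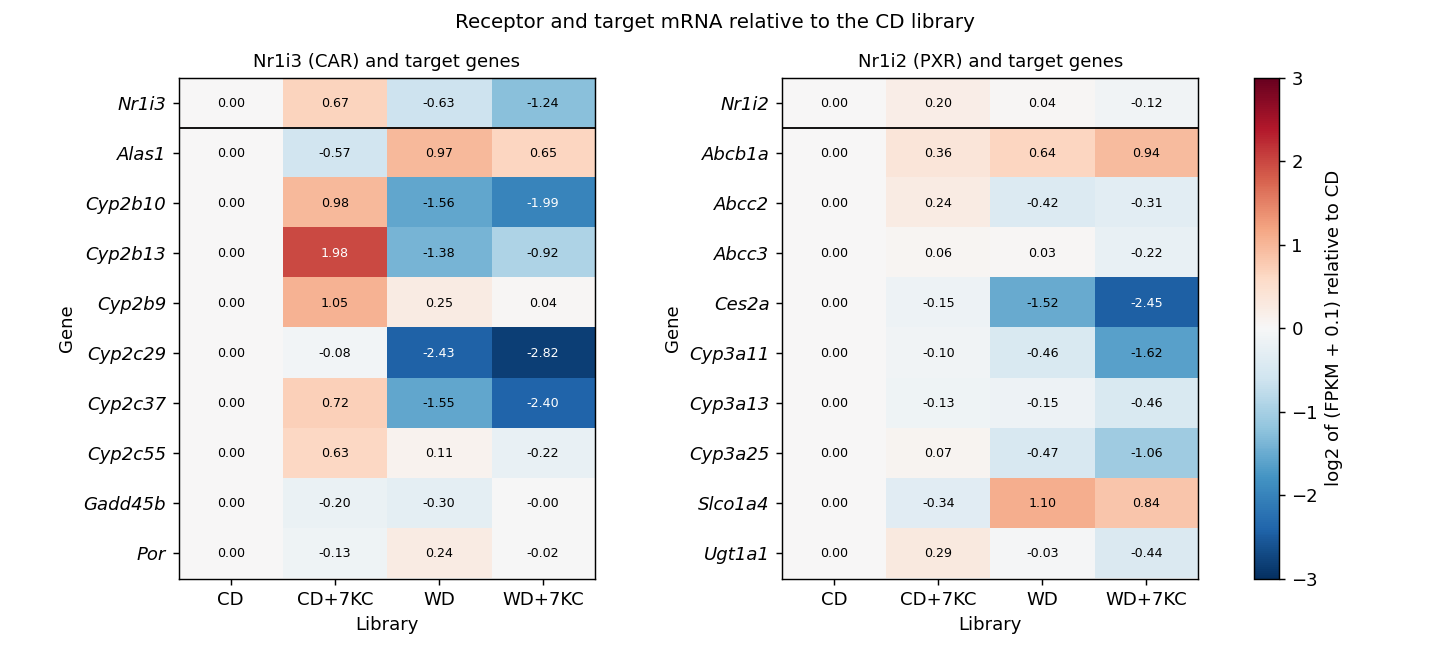
Log2 of (FPKM + 0.1) relative to CD for Nr1i3 with 9 CAR targets (left) and Nr1i2 with 9 PXR targets (right), with 1 column per library and red for higher and blue for lower. Nr1i3 reads 0.67 in CD+7KC, where Cyp2b9, Cyp2b10, Cyp2b13, Cyp2c37 and Cyp2c55 are red and the other 4 CAR targets were lower. The Nr1i2 row stays near 0. Cyp3a11 and Ces2a are already lower in WD (Ces2a at -1.52) and are lowest in WD+7KC.

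Nr1h4 (ENSMUSG00000047638, chr10:89454234-89533585, - strand) encodes the farnesoid X receptor (FXR), the bile acid sensor. Its level was 72.6 FPKM on CD, 52.4 on CD+7KC, 61.0 on WD and 52.5 on WD+7KC. CD stood above the other libraries, and the 7KC libraries differed by a log2 change of 0.003 as deposited but by 0.21 (0.09 to 0.34), with WD+7KC higher, on equal sums. With 7KC the log2 change was -0.47 (-0.59 to -0.35) on CD and -0.22 (-0.34 to -0.09) on WD, and the latter was -0.001 with equal sums.

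All 3 listed genes that bile acid signalling through FXR holds down had lower values with 7KC on both diets. Cyp8b1, the 12-alpha-hydroxylase that sets the makeup of bile acids, was at 186 FPKM on CD, 47.3 on CD+7KC, 104 on WD and 38.0 on WD+7KC. Cyp7a1, the rate-limiting enzyme of bile acid synthesis, was at 18.1, 11.5, 13.1 and 6.53 FPKM in the same order, and Slc10a1, the importer of bile acids from blood, at 238, 198, 187 and 111 FPKM. Past 1.5-fold, all 3 were lower with 7KC on WD (2 of 3 with equal sums) and 2 of 3 with 7KC on CD. As deposited, 3.04% of all genes were lower by this much on WD and 3.05% on CD.

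Among 7 genes that FXR switches on, 6 had a mean of at least 1 FPKM and Slc51a was listed at 0 throughout. Nr0b2, the small heterodimer partner that represses bile acid synthesis, was at 24.9 FPKM on CD, 30.2 on CD+7KC, 15.1 on WD and 18.5 on WD+7KC. It was 0.28 higher on the log2 scale with 7KC on CD and 0.29 on WD, short of 1.5-fold, and was lower on WD than on CD. Slc51b, a subunit of a bile acid exporter, was the 1 gene past 1.5-fold with 7KC on CD, with a wide interval (2.29, from 0.74 to 4.32) and 0.647 FPKM in CD. In WD+7KC compared to CD+7KC, 4 of the 6 were lower by over 1.5-fold and 1 was higher, against 8.33% and 11.8% of genes. With equal sums none of the 6 was lower by as much.

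Nr5a2 (ENSMUSG00000026398, chr1:136842571-136960448, - strand) encodes LRH-1, a phospholipid-binding receptor that works with FXR and Nr0b2 in control of bile acid synthesis. It was at 9.05 FPKM on CD, 10.3 on CD+7KC, 8.97 on WD and 8.30 on WD+7KC. The highest was 1.25-fold the lowest, and the counting interval of the change with 7KC held 0 on CD (0.19, from -0.13 to 0.52) and on WD (-0.11, from -0.46 to 0.23). With equal sums the change on WD turned to 0.10. Of 7 LRH-1 targets, 2 were over 1.5-fold lower with 7KC on each diet, and these were again Cyp8b1 and Cyp7a1. By this much 3.05% of genes were lower on CD and 3.04% on WD. The sterol exporter pair Abcg5 and Abcg8 had log2 changes of -0.97 and -0.91 in WD+7KC compared to CD+7KC.

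Ppara (ENSMUSG00000022383, chr15:85734983-85802819, + strand) encodes the fatty acid receptor that switches on fatty acid oxidation in fasting. Its level was 59.0 FPKM on CD, 50.1 on CD+7KC, 52.3 on WD and 42.3 on WD+7KC. Each 7KC library was below its diet without 7KC and WD+7KC was lowest. The change with 7KC was -0.23 (-0.34 to -0.13) on CD and -0.31 (-0.43 to -0.19) on WD, and the latter was -0.09 with equal sums.

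None of 18 PPAR alpha targets passed 1.5-fold with 7KC on either diet as deposited, and 2 were higher on WD with equal sums. On WD, 14 of the 18 were lower and 4 higher with 7KC, which became 9 and 9 with equal sums. Cpt1a, which admits fatty acids to mitochondria, was at 108 FPKM on CD, 92.5 on CD+7KC, 155 on WD and 132 on WD+7KC. Its changes with 7KC were -0.22 on CD and -0.24 on WD, and -0.18 and -0.02 with equal sums. As deposited, differences past 1.5-fold lay between the diets. In WD compared to CD, Acot2, an acyl-CoA thioesterase, was higher (1.46), as was the hormone gene Fgf21 (0.92), and Pdk4, a brake on glucose oxidation, was lower (-0.82). By this much 8.59% of genes were higher and 6.94% lower. In WD+7KC compared to CD+7KC, 2 targets were higher and 3 lower, against 11.8% and 8.33% of genes. Cyp4a10 was furthest down (-0.79). With equal sums 4 were higher and 0 lower by this much.

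Pparg (ENSMUSG00000000440, chr6:115360951-115490399, + strand) encodes the fat storage receptor, which is low in lean liver and raised in fatty liver of obese mice. Here it was at 32.1 FPKM on CD, 26.5 on CD+7KC, 22.5 on WD and 17.9 on WD+7KC. The levels stepped down in this order, with CD 1.79-fold WD+7KC. The change with 7KC was -0.27 (-0.46 to -0.09) on CD and -0.33 (-0.55 to -0.11) on WD, the latter -0.11 with equal sums. WD was below CD by a log2 change of -0.51 (-0.71 to -0.31), which was -0.48 with equal sums.

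Fat cell markers were checked because Pparg is also a fat cell gene. The summed FPKM of 5 such markers was 221 on CD, 63.5 on CD+7KC, 1.47 on WD and 0.115 on WD+7KC, nearly all of it Cfd. The defining markers Plin1 and Lep were at 0 in every library, and Adipoq was at 0.0885 FPKM in CD.

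None of 8 PPAR gamma targets passed 1.5-fold with 7KC on either diet, though 2 were higher on WD with equal sums. Cidea, a protein that enlarges lipid droplets, was at 143 FPKM on CD, 99.5 on CD+7KC, 49 on WD and 39.7 on WD+7KC, the same order of libraries as Pparg. Fabp4, a fatty acid carrier of fat cells and macrophages, was highest in WD+7KC, at 83.5, 66.5, 104 and 143 FPKM in the order used above. Eva1a and Bag4 had profiles close to that of Pparg, at distances of 0.02 and 0.05, but 652 genes lay within 0.3 of it.

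Ppard (ENSMUSG00000002250, chr17:28232700-28301474, + strand) encodes PPAR delta, a widely expressed fatty acid receptor. It was the lowest of the 10, at 2.08 FPKM on CD, 1.5 on CD+7KC, 1.71 on WD and 2.64 on WD+7KC, or an estimated 70, 50.8, 49.8 and 98.4 reads. WD+7KC was the highest library and CD+7KC the lowest. The change with 7KC was 0.59 (0.10 to 1.13) on WD and -0.44 (-1.01 to 0.08) on CD, so that the counting interval on CD held 0. With equal sums these values were 0.80 and -0.41. The diets with 7KC differed by 0.78 (0.30 to 1.32).

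The summed macrophage and endothelial markers, from cell types that also use PPAR delta, were highest in WD+7KC, the library with the most Ppard, although the macrophage gene Cd163 was highest in CD+7KC. All 8 macrophage markers were past 1.5-fold higher with 7KC on WD, with a median of 1.01, and all 6 endothelial markers were too, with a median of 1.49. By this much 7.50% of genes were higher. On CD, 5 of 8 macrophage markers and 1 of 6 endothelial markers were past 1.5-fold higher with 7KC, against 4.40% of genes, while Ppard was lower. The part of these cells in the Ppard value was not tested. Art4, Myl6b and Sdad1 had the closest profiles to Ppard, at distances of 0.06, 0.07 and 0.08, and 164 genes lay within 0.3.

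Rxra (ENSMUSG00000015846, chr2:27676440-27762957, + strand) encodes the shared partner of the PPARs, FXR, PXR and CAR. Its level was 74.2 FPKM on CD, 74.5 on CD+7KC, 84.1 on WD and 76.1 on WD+7KC, the narrowest range of the 10 as deposited (1.13-fold). The change with 7KC was 0.01 (-0.10 to 0.11) on CD and -0.14 (-0.25 to -0.04) on WD, or 0.07 on WD with equal sums. The ratio of Rxra to Nr1i3 FPKM, which does not depend on the scaling, was 1.63 on CD, 1.03 on CD+7KC, 2.86 on WD and 3.96 on WD+7KC. For Pparg the ratio was 2.31, 2.81, 3.74 and 4.24 in the same order. Rxra to Nr1i2 ranged only from 1.74 to 2.2.

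The partner genes Rxrb and Rxrg were lower than Rxra in every library. Rxrb was at 11.4 FPKM on CD, 12.2 on CD+7KC, 15.0 on WD and 12.2 on WD+7KC. Rxrg, at 2.90, 5.04, 4.31 and 3.85 FPKM, was furthest up with 7KC on CD among the other receptors (0.78, from 0.26 to 1.37). With 7KC on WD, Nr4a1 (0.97) was furthest up among the other receptors, followed by Rarg (0.82), and Nr6a1 (-0.56) was furthest down. Between the diets Rarg was furthest up (0.73 without and 0.93 with 7KC). All 4 of these genes had means under 5 FPKM.

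Hnf4a (ENSMUSG00000017950, chr2:163506808-163572910, + strand) encodes a receptor that maintains hepatocyte identity. It was the most abundant of the 49 receptors, at 121 FPKM on CD, 105 on CD+7KC, 105 on WD and 93.4 on WD+7KC. CD was highest and WD+7KC lowest. The change with 7KC was -0.20 (-0.26 to -0.14) on CD and -0.17 (-0.24 to -0.11) on WD, and the latter turned to 0.04 with equal sums. In WD+7KC compared to CD+7KC it was -0.17 as deposited and 0.04 with equal sums. The summed hepatocyte markers, led by Alb, were likewise lower with 7KC on both diets. Of the 6 markers, 4 were lower and 2 higher with 7KC on CD. On WD all 6 were lower as deposited, against 4 lower and 2 higher with equal sums.

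None of 12 HNF4 alpha targets passed 1.5-fold in 3 of the comparisons. In WD+7KC compared to CD+7KC, 2 were lower, Otc of the urea cycle (-1.19) and Apoa2, an apolipoprotein of high-density lipoprotein (-0.77). There 8.33% of genes were lower by this much. With equal sums Otc remained past 1.5-fold (-0.98), Apoa2 did not (-0.56), and Apom, another apolipoprotein, passed as higher (0.61). Of the 12, 11 were lower and 1 higher with 7KC on WD as deposited, against 5 and 7 with equal sums.

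Esrra (ENSMUSG00000024955, chr19:6910977-6921813, - strand) encodes ERR alpha, an orphan receptor that drives mitochondrial genes. It was at 12.3 FPKM on CD, 13.5 on CD+7KC, 13.5 on WD and 15.8 on WD+7KC. WD+7KC was highest, and as deposited Esrra was the 1 receptor besides Ppard that was higher with 7KC on WD. That change was 0.22 (-0.003 to 0.46), or 0.44 (0.21 to 0.68) with equal sums, so its counting interval held 0 on the deposited scale and not on the other. On CD the change was 0.14 (-0.10 to 0.38). Trmt112, on the opposite strand, overlaps 73 of the 2242 mRNA bases of Esrra (3.26%).

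None of 7 ERR alpha targets passed 1.5-fold with 7KC on either diet as deposited. Pdk4, which also belongs to the PPAR alpha list, was at 12.6 FPKM on CD, 9.38 on CD+7KC, 7.08 on WD and 10.5 on WD+7KC. It was the 1 target past 1.5-fold in WD compared to CD, and its change with 7KC on WD was 0.56.

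Coregulators, which carry a receptor's signal to the transcription machinery, were measured at a mean of at least 1 FPKM for 13 of 14 genes. With 7KC on WD 12 of the 13 were higher, and on CD 5 of 13 were. The median on WD was 0.26 (0.47 with equal sums), against -0.03 and 0.18 for all genes. In WD compared to CD 11 of the 13 were lower, with a median of -0.26 against -0.007 for all genes. This count and that for 7KC on WD rest on the same WD library, so they are not separate results. In WD+7KC compared to CD+7KC the median was -0.04 (0.16 with equal sums), and 4 were higher and 9 lower as deposited, against 11 and 2 with equal sums. Sirt1, a deacetylase that acts on several of these receptors, was the 1 past 1.5-fold with 7KC on WD as deposited, joined by Ncoa3 with equal sums, and it was at 3.06 FPKM on CD, 2.95 on CD+7KC, 1.40 on WD and 2.28 on WD+7KC. WD was the low library for Sirt1. Ppargc1a, a coactivator of ERR alpha and PPAR alpha, was at 1.33, 1.54, 1.09 and 1.37 FPKM in the same order.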

How the data were processed

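Liver RNA of ob/ob mice on CD, CD+7KC, WD and WD+7KC was sequenced with 1 library per group. The authors made stranded mRNA libraries, read 75 bases single-end, mapped them to mm10 with TopHat2 2.0.13, Bowtie2 2.2.3 and SAMtools 0.1.19 and deposited FPKM per gene symbol from Cufflinks 2.2.1 (versions from the submitters' processing notes). The annotation, the Cufflinks options, use of strand and the mice per library are not given in the sources used here.

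Log2 changes were computed as ratios of (FPKM + 0.1) for genes above 0 FPKM in a library compared, with thresholds of 1 and of 1.5-fold; the added 0.1 understates changes of low genes. The 1.5-fold counts and the list counts and medians used genes averaging at least 1 FPKM over the 4 libraries. Depth was estimated from the steps of low FPKM in 14058 genes with 1 RefSeq mRNA, using its length minus 200 bases. Exact (Clopper-Pearson) 95% intervals cover counting error only; reads without molecular identifiers are not independent molecules. No p-value was computed.

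The receptors and lists were chosen with earlier results of these data known. Named genes were the receptors, the extremes of each list, the 5 most abundant other receptors, the 3 closest profiles to receptors spanning at least 1.5-fold, and genes of small counts; further target genes were named after their values were seen, and some genes that the rule picks are not reported here. Lists overlap, as Cyp7a1, Cyp8b1, Nr0b2, Acadm, Pdk4 and Ttr each stand in more than 1. Gene positions came from GENCODE vM21 and promoters from RefSeq. Alternatives were other pseudocounts, a filter, 4 other scalings and 2 other thresholds. The code was tested on simulated data and run with Python 3.11.15, numpy 2.4.6, pandas 2.3.3, scipy 1.17.1 and matplotlib 3.10.9.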

Additional observations from a re-analysis of the deposited data

Results flagged for a closer look

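Nr1i3 and Ppard were flagged because the difference with 7KC had opposite directions on the 2 diets under every scaling tried. The share of all genes with such opposite directions was not computed, so the flag is not read as a result about these receptors. Nr1i3 had a log2 change of -0.61 in WD+7KC compared to WD and of 0.67 in CD+7KC compared to CD. The change on WD minus the change on CD was -1.28, or -1.10 after rescaling to equal sums. Ppard had a log2 change of 0.59 in WD+7KC compared to WD and of -0.44 in CD+7KC compared to CD, a gap of 1.04, or 1.21 after rescaling. The counting interval of the Ppard change on CD, from -1.01 to 0.08, held 0. With 1 library per group, these differences between the diets were not tested.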

How the results depend on the processing

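No paired analysis was possible because each group had 1 library, and no library could be left out. With equal sums, the median log2 change of the 10 receptors turned from -0.165 to 0.051 in WD+7KC compared to WD and went from -0.209 to -0.000203 in WD+7KC compared to CD+7KC, or to -0.015 when the 20 most abundant genes were left out of the sums. A 1.5-fold threshold in place of a log2 change of 1 raised the receptors past it from 0 to 2 for 7KC on WD, from 0 to 1 for 7KC on CD, from 0 to 1 for WD compared to CD and from 1 to 2 for WD+7KC compared to CD+7KC, where a threshold of 2 left 0. Of 280 receptor values under 7 alternatives, 256 moved by less than the half-width of their counting interval. Another sign appeared in 11, all with equal sums (6 over all genes, 5 without the top 20), in 6 of 40 combinations of receptor and comparison. For 7KC on WD, 1418 genes passed a log2 change of 1, against 189 with a pseudocount of 1, 2830 with 0.01, 372 among genes averaging at least 1 FPKM, 3310 at 1.5-fold and 190 at 2. For 7KC on CD the count was 1059, against 113, 2380, 218, 2742 and 165. For WD compared to CD it was 1511, against 287, 2929, 497, 3778 and 262. For the diets with 7KC it was 2007, against 541, 3582, 845, 4597 and 313. Depth limits Ppard most, at about 50 reads in CD+7KC and in WD.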
